A study of Mus musculus with 12 samples.

Results

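Entry into the cell division cycle was examined through 10 genes of the deposited count table: 5 inhibitors of cyclin-dependent kinases (*Cdkn1a*, *Cdkn1b*, *Cdkn2b*, *Cdkn2c* and *Cdkn2d*), the 3 D cyclins (*Ccnd1*, *Ccnd2* and *Ccnd3*) and their kinases *Cdk4* and *Cdk6*. They were taken by gene name from a table of 32288 entries, and all 10 passed the expression filter in every comparison. The data are RNA-seq counts of mGFP+ cells sorted from the metaphysis of mouse long bones, in 4 groups. The juvenile group (4 libraries, 3 weeks of age) and the adult group (4 libraries, 8 weeks of age) came from *Osx-CreERT2*; *mTmG* mice, and each of these libraries pooled the bones of 2 males. The *c-Myc* group (2 libraries) also carried *LSL-tTA* and *Col1a1::TetO-c-Myc*, a Tet-OFF transgene that runs once Cre has released the transactivator. The *c-Myc* + *R172H* group (2 libraries) carried in addition *Trp53-LSL-R172H*, a Cre-dependent point mutation of p53. All 4 groups therefore share the *Osx* (*Sp7*) driven CreERT2, the mTmG reporter and tamoxifen.

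The induced groups differ from the juvenile group in more than the transgene. Their cells were collected 7 days after tamoxifen from mice of both sexes by the labels (a general statement of the study gives males for its RNA-seq), the diaphysis was trimmed at 5 mm and not at 2 mm, and a protocol gives their age as 5 weeks although the titles give 3 weeks. By the study's methods, Tet-OFF mice or pregnant females also drank doxycycline or tetracycline, which was withdrawn before analysis. The control groups carry no Tet-OFF transgene. Genotype, sex, trimming, age, tamoxifen schedule and this drug treatment cannot be told apart in these comparisons. The labels give no batch, and do not say whether the libraries of an induced group came from separate mice, so the p-values measure only the spread between these libraries. In bulk samples, fewer cells of a type and less RNA per cell cannot be told apart either.

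D cyclins bind CDK4 and CDK6, and the active complexes phosphorylate the retinoblastoma protein, which releases E2F factors and lets a cell pass from G1 into S phase. The INK4 inhibitors (p15, p18 and p19, from *Cdkn2b*, *Cdkn2c* and *Cdkn2d*) bind CDK4 and CDK6 alone. The CIP/KIP inhibitors (p21 and p27, from *Cdkn1a* and *Cdkn1b*) act mainly on CDK2 complexes and also help D cyclins and their kinases to assemble. *Cdkn1a* is a classical target of p53, and c-Myc is a transcription factor that binds the E-box sequence CACGTG. In growing bone, osteoblast precursors of the metaphysis divide before they mature, and growth plate chondrocytes leave the cycle as they enlarge.

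Total counts per library ran from 9066154 to 15684412. The labels held: *Myc* was at 39.8 to 52.2 CPM (counts scaled to equal library size, with TMM factors over the 12 libraries) in the 8 control libraries and at 624 to 747 CPM in the 4 induced libraries. Gene counts do not show the *Trp53* point mutation, so nothing here checks that label. All 9 osteoblast markers were detected in each group, and their summed level was 571300 to 840000 CPM in juvenile, 343040 to 618490 CPM in adult, 99840 to 132230 CPM in *c-Myc* and 56381 to 58318 CPM in *c-Myc* + *R172H* libraries. The 9 hematopoietic markers summed to at most 10.9 CPM and the 6 erythroid and 5 endothelial markers to at most 1.24 CPM in any library, with *Cd3e* and *S100a8* at 0 throughout. The 6 osteoclast markers summed to 66.5 to 430 CPM with *Calcr* and *Ocstamp* at 0, the 5 marrow stromal markers to 63.2 to 585 CPM, and the 4 muscle markers to at most 3.24 CPM. *Col1a1*, *Col1a2* and *Gm26917* together took from 35.2% to 65.3% of a library, and fold changes were for this reason also computed with library totals. The share was lowest in the *c-Myc* + *R172H* libraries (35.2% and 37.6%), while the *c-Myc* libraries (41.8% and 46.1%) overlapped the adult ones.

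Of the 10 genes, 2 were called in the age comparison at an adjusted p below 0.05 (edgeR's quasi-likelihood test), against a background of 5.12% of the 11345 genes tested. In the *c-Myc* comparison with juvenile cells 3 were called, where the background was 53.4% of 12588 genes, and 2 of these 3 also moved by 1 or more on the log2 scale (background 34.4%). In the *c-Myc* + *R172H* comparison with juvenile cells 6 were called (background 56.7%), of which 3 met the fold rule (background 37.5%). With R172H added to *c-Myc*, none of the 10 was called by this test (background 0.469%), and DESeq2 called 1 (background 3.34%). An unadjusted p below 0.05 in edgeR was found for 2 of the 10, and the share of all genes at that level was not counted. The shares of 3 and 6 in 10 stand below and near the background of the induced comparisons, so these counts set the 10 genes apart in nothing, and what each gene did is described in the order of their roles.

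**Figure D1:**
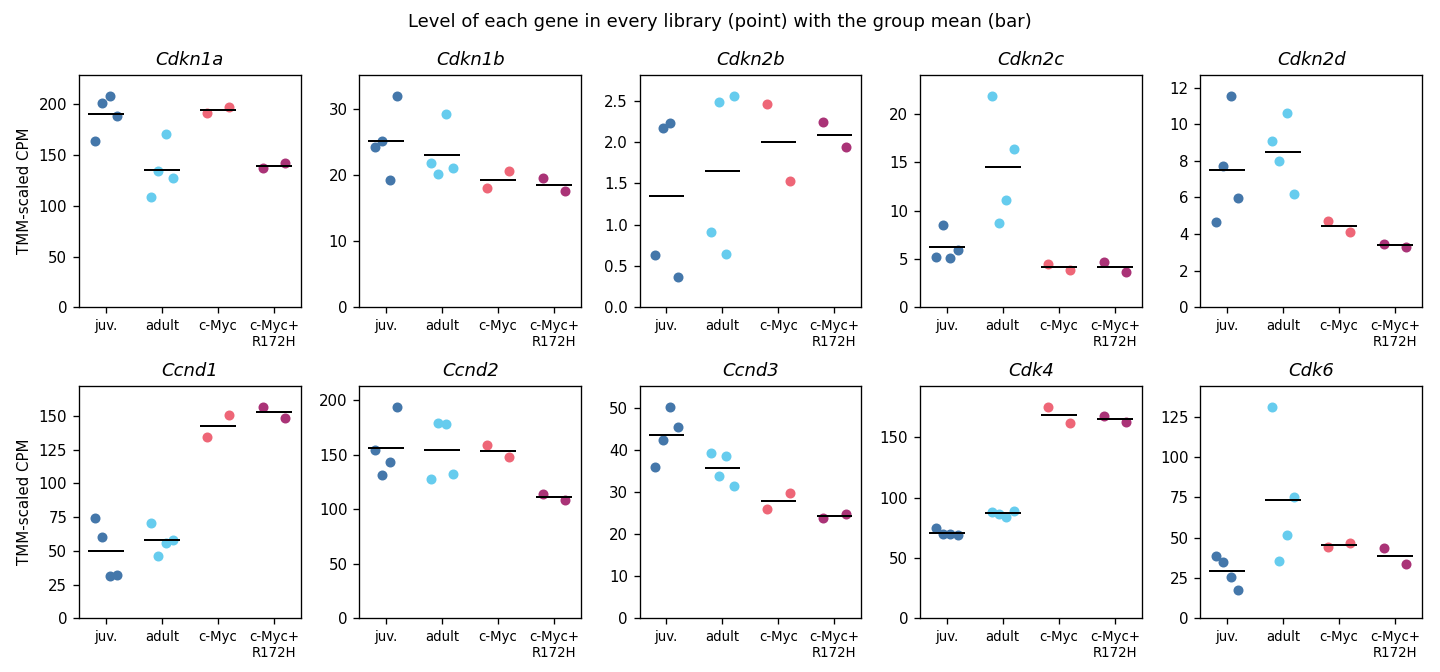
TMM-scaled CPM (linear axis from 0) of the 10 genes in each of the 12 libraries, with points for libraries and a bar for the group mean. *Ccnd1* and *Cdk4* lie higher in all 4 induced libraries than in any control library, *Ccnd3* lies lower on this scale, and *Cdkn1a* is as high in *c-Myc* as in juvenile libraries.

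*Cdkn1a* (ENSMUSG00000023067, chromosome 17 from 29090976 to 29100727 of GRCm38) was the most abundant of the 5 inhibitors per kilobase in every group, at 53.6 ± 5.50 CPM per kb (SD, n = 4) in juvenile libraries. In juvenile libraries it reached 164, 201, 208 and 188 CPM, against 109, 134, 170 and 127 CPM in adult ones. The *c-Myc* libraries had 191 and 197 CPM, within the juvenile range, and the *c-Myc* + *R172H* libraries had 137 and 142 CPM, below every juvenile and *c-Myc* library and within the adult range. The group means of *Cdkn1a* were thus higher in juvenile and *c-Myc* cells (190 and 194 CPM) than in adult and *c-Myc* + *R172H* cells (135 and 139 CPM). Within each of these pairs the libraries overlapped, and so did those of the 2 ages: adult replicate 3 (170 CPM) lay above juvenile replicate 1 (164 CPM).

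*Cdkn1a* was higher in juvenile than in adult cells by 0.49 on the log2 scale (SE 0.14, adjusted p = 0.0476, edgeR), which is 1.40-fold, and the groups overlapped by 1 library on each side. The call rested on all libraries but one: it was kept without adult replicate 3 (0.62, adjusted p = 0.0189) and lost without each of the other 7, with an adjusted p of 0.057 to 0.135 and a log2 fold change of 0.40 to 0.56. With library totals it was also lost (0.24, adjusted p = 0.337). Between *c-Myc* and juvenile cells the log2 fold change was 0.01 with a 95% interval from -0.21 to 0.23. With TMM factors a change of the size seen with age thus lay outside the interval. With library totals *Cdkn1a* was higher in *c-Myc* cells by 0.85 and was called (adjusted p = 5.4e-05, edgeR), where the median of all genes was 0.87. *c-Myc* + *R172H* cells were lower than juvenile cells by 0.44 on the log2 scale (-0.44, SE 0.10, adjusted p = 0.00262, edgeR), and this call held without each library in turn (largest adjusted p = 0.0332). When library totals replaced the TMM factors the direction turned (0.61).

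The direct test of the added mutation gave *Cdkn1a* a log2 fold change of -0.45 (SE 0.12, 95% interval from -0.70 to -0.20), a 0.732-fold level. The libraries did not overlap and the unadjusted p was 0.00199, but the adjusted p was 0.171 over all genes in edgeR. It was 0.00788 in DESeq2 and 8.6e-05 in edgeR on the 2 induced groups alone, fits in which 3.34% and 5.17% of the genes they tested were called. Over the 10 alternatives other than left-out libraries the adjusted p ran from 8.6e-05 to 0.895, and over the 8 left-out libraries from 0.0916 to 1.0. The log2 fold change stayed below 0 in all of these, between -0.51 and -0.24, and was smallest in size with library totals (-0.24, adjusted p = 0.895).

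Which other genes follow *Cdkn1a* was asked over the 12 libraries, among 12995 genes. The highest Pearson correlations of log2 CPM were those of *Wfdc1* (0.91), *AI467606* (0.88) and *Impdh1* (0.88), against a median of 0.01 over all these genes. The 12 libraries fall into 4 groups that also differ in composition, so these values describe a shared order of the groups and are given without a test.

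*Cdkn1b* (ENSMUSG00000003031, chromosome 6), the gene of p27, was called in no comparison under the main settings. It lay between 19.2 and 31.9 CPM in juvenile libraries, 20.2 and 29.2 in adult, 18.0 and 20.6 in *c-Myc*, and 17.5 and 19.5 in *c-Myc* + *R172H* libraries. Its log2 fold change was 0.12 with age, -0.41 for *c-Myc* and -0.44 for *c-Myc* + *R172H* against juvenile (adjusted p = 0.792, 0.0952 and 0.0721, edgeR). Without juvenile replicate 3, the lowest of its group, both decreases were called (-0.52 and -0.55, adjusted p = 0.0178 and 0.0128). With library totals *Cdkn1b* was instead called higher in *c-Myc* + *R172H* than in juvenile cells (0.61, adjusted p = 0.0187, edgeR). The median of all genes on that scale was 1.12.

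The 3 INK4 genes were scarce. *Cdkn2b* (chromosome 4) had 3 to 54 reads in any library and at most 2.56 CPM, and no group stood clear of another. The 95% interval for *c-Myc* against juvenile reached from -0.91 to 2.02, so a difference was not detectable with TMM factors at this depth. With library totals *Cdkn2b* was called higher in *c-Myc* + *R172H* than in juvenile cells (1.69, adjusted p = 0.0355, edgeR), where the median of all genes was 1.12. *Cdkn2d* (chromosome 9) had 4.66 to 11.5 CPM in juvenile and 6.18 to 10.6 CPM in adult libraries. It had 4.70 and 4.14 CPM in *c-Myc* libraries, and 3.48 and 3.32 CPM in *c-Myc* + *R172H* libraries, below every control library. The fall was called for *c-Myc* + *R172H* against juvenile (log2 fold change -1.11, SE 0.37, adjusted p = 0.0228, edgeR) but was lost without either *c-Myc* + *R172H* library (adjusted p = 0.110 and 0.122) and with library totals (-0.05, adjusted p = 0.903), and was not called for *c-Myc* (-0.76, adjusted p = 0.0975).

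*Cdkn2c* (ENSMUSG00000028551, chromosome 4 from 109660876 to 109667189), the gene of p18, was the INK4 gene that differed with age. It was at 5.20, 8.56, 5.14 and 5.96 CPM in juvenile libraries, against 21.9, 8.69, 11.1 and 16.4 CPM in adult ones. Every adult library lay above every juvenile one, though the lowest adult and the highest juvenile library nearly met. The log2 fold change, juvenile over adult, was -1.23 (SE 0.30, adjusted p = 0.0257, edgeR), which is a 0.426-fold level in juvenile cells. The call was lost without juvenile replicate 1, 3 or 4 (-1.15, -1.15 and -1.21, adjusted p = 0.0829, 0.0631 and 0.063) and without adult replicate 1 or 4 (-0.96 and -1.17, adjusted p = 0.11 and 0.0785). In the *c-Myc* libraries *Cdkn2c* had 4.47 and 3.85 CPM and in the *c-Myc* + *R172H* libraries 4.71 and 3.62 CPM, below all controls. Neither difference from juvenile was called (-0.60 and -0.57, adjusted p = 0.144 and 0.157).

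The summed level of 11 chondrocyte markers, all detected in each group, moved with *Cdkn2c* and with *Cdk6* among the adult libraries. It was 138090, 43787, 65602 and 85083 CPM in adult replicates 1 to 4, the same order of libraries as for both genes. In juvenile replicates 1 to 4 it was 28027, 34499, 36084 and 18530 CPM, an order that neither gene followed. Of these 11 markers 10 had a log2 fold change below 0 with age (juvenile over adult), with a median of -1.89. Of these, 1 was called, beside 5.12% of all genes. The markers' part in the age differences of *Cdkn2c* and *Cdk6* was not tested. In the induced groups they summed to 1868 to 2114 CPM (*c-Myc*) and 872 to 1039 CPM (*c-Myc* + *R172H*). All 11 were called lower than in juvenile cells in both comparisons, in which 53.4% and 56.7% of all genes were called in either direction.

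**Figure D2:**
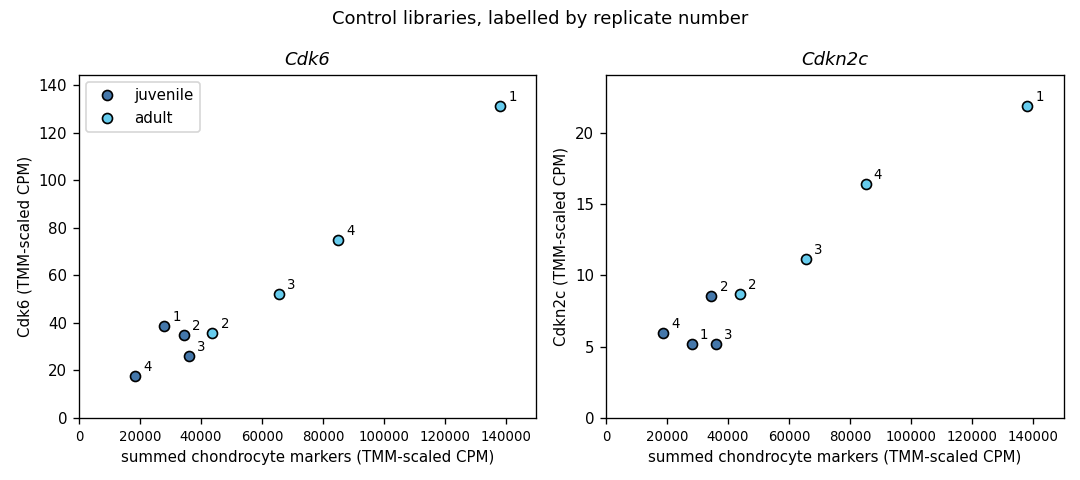
TMM-scaled CPM of *Cdk6* (left) and *Cdkn2c* (right) against the summed level of 11 chondrocyte markers in TMM-scaled CPM, one point per control library with its replicate number. Adult replicates 1 and 4 are highest on both axes for both genes, and the part of these markers in the differences was not tested.

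Among the D cyclins, *Ccnd1* was higher in both induced groups, *Ccnd3* was lower with TMM scaling, and the order of *Ccnd1* and *Ccnd2* within the *c-Myc* libraries depended on whether counts were divided by length. *Ccnd1* (ENSMUSG00000070348, chromosome 7 from 144929931 to 144939925) had 74.7, 60.5, 31.0 and 32.3 CPM in juvenile and 70.4, 46.5, 56.1 and 57.8 CPM in adult libraries. It had 134 and 151 CPM in *c-Myc* libraries, and 157 and 148 CPM in *c-Myc* + *R172H* libraries. All 4 induced libraries stood clear of all 8 controls. The log2 fold change against juvenile was 1.48 for *c-Myc* (SE 0.32, adjusted p = 0.00371, edgeR) and 1.61 for *c-Myc* + *R172H* (SE 0.32, adjusted p = 0.00213), which are 2.80-fold and 3.06-fold. Both calls held in all 10 alternatives and without each library in turn. The juvenile libraries alone spanned 31.0 to 74.7 CPM, far more than the gap between the age means, and the age difference was -0.22, with a 95% interval from -0.82 to 0.38. R172H added to *c-Myc* gave 0.13 (95% interval from -0.72 to 0.97), which does not exclude a sizeable change either way. In the annotation 23.4% of the exon bases of *Ccnd1* overlap *LTO1* on the opposite strand, and the strand setting of the counting is not given in the sources used here.

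*Ccnd2* (ENSMUSG00000000184, chromosome 6 from 127125162 to 127152193) had 154, 131, 144 and 194 CPM in juvenile, 128, 179, 178 and 132 CPM in adult, and 159 and 148 CPM in *c-Myc* libraries. These 3 groups overlapped, and the means, 156, 154 and 153 CPM, differed by less than the spread between libraries. The *c-Myc* + *R172H* libraries had 114 and 109 CPM, below all 10 others. Against juvenile cells the fall was called (log2 fold change -0.48, SE 0.13, adjusted p = 0.00927, edgeR), but not without *c-Myc* + *R172H* replicate 2 (-0.48, adjusted p = 0.0674), and with library totals the direction turned (0.58). On that scale *Ccnd2* was called higher than in juvenile cells in both induced groups. The log2 fold change was 0.80 with *c-Myc* and 0.58 with *c-Myc* + *R172H* (adjusted p = 0.00048 and 0.0042, edgeR). Against *c-Myc* cells the fall with TMM factors was -0.43 (SE 0.15, unadjusted p = 0.0149, adjusted p = 0.579). The adjusted p of that direct comparison ran from 0.000293, on the 2 induced groups alone, to 0.998 over the 10 alternatives.

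*Ccnd3* (ENSMUSG00000034165, chromosome 17 from 47505051 to 47599691) had its highest mean in juvenile libraries, with 35.9, 42.2, 50.2 and 45.3 CPM. Adult libraries had 39.2, 33.7, 38.4 and 31.3 CPM, overlapping the juvenile ones (log2 fold change 0.27, adjusted p = 0.320, edgeR). The *c-Myc* libraries had 26.0 and 29.6 CPM and the *c-Myc* + *R172H* libraries 23.7 and 24.8 CPM, so both induced groups stood below all controls, and they did not overlap with each other. Both falls against juvenile were called, at -0.66 (SE 0.15, adjusted p = 0.00235) and -0.83 (SE 0.15, adjusted p = 0.000451). Without *c-Myc* replicate 1 the first was -0.56 (adjusted p = 0.0521), and with library totals both directions turned (0.18 and 0.23). The difference between the 2 induced groups was not called (-0.17, 95% interval from -0.53 to 0.19).

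The balance among the D cyclins can be read within a library, where no scaling between libraries enters. Divided by exon length, *Ccnd1* made up 32.3 ± 11.5% (SD, n = 4) of the D cyclin signal in juvenile libraries, 37.6 ± 6.89% (n = 4) in adult, 60.8 ± 2.61% (n = 2) in *c-Myc* and 68.9 ± 0.379% (n = 2) in *c-Myc* + *R172H* libraries. *Ccnd2* went the other way, from 52.0 ± 9.06% in juvenile and 50.0 ± 7.50% in adult to 32.8 ± 2.95% and 25.2 ± 0.0011% in the induced groups. *Ccnd3* fell from 15.8 ± 3.89% and 12.4 ± 0.805% to 6.37 ± 0.339% and 5.89 ± 0.38%. *Ccnd2* was the leading D cyclin in all 4 juvenile libraries and in 3 of 4 adult libraries, and *Ccnd1* in all 4 induced libraries. This order depends on the division by length: with undivided counts *Ccnd2* led in the *c-Myc* mean (47.4% against 44.0% for *Ccnd1*) and in *c-Myc* replicate 1 (3480 against 2940 reads), and the juvenile share of *Ccnd1* was 19.9%. The 2 induced groups did not overlap in the share of *Ccnd1*, which was 58.9% and 62.6% against 69.2% and 68.7%. These shares are descriptions without a test, and they use the merged exon lengths of all transcripts, from 4709 bases for *Ccnd1* to 9409 bases for *Ccnd2*.

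**Figure D3:**
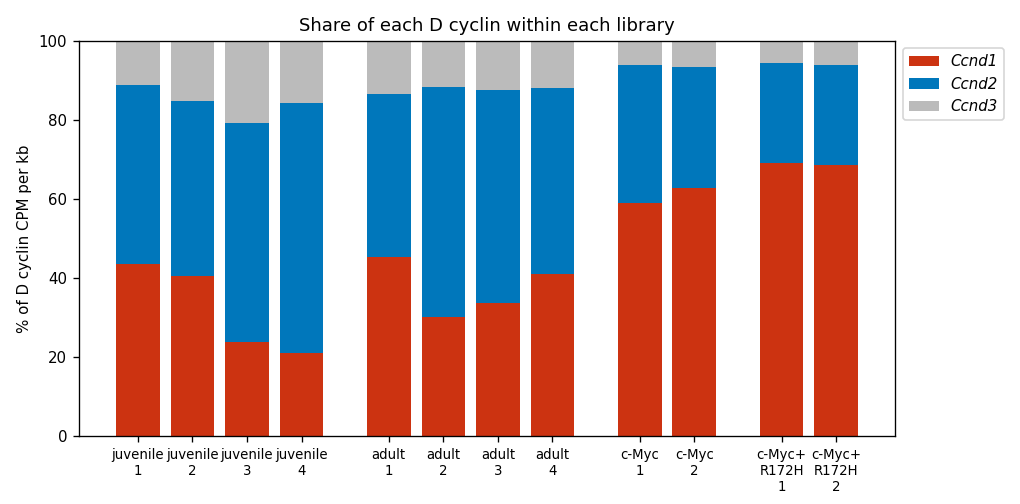
Share of each D cyclin in the summed CPM per kb of the 3, as stacked bars from 0 to 100%, one bar per library. *Ccnd1* takes from 21.0% to 45.4% in control libraries and from 58.9% to 69.2% in induced libraries.

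*Cdk4* (ENSMUSG00000006728, chromosome 10 from 127063534 to 127067920) had the smallest SE of the 10 genes in both comparisons with juvenile cells. It had 75.0, 69.7, 70.1 and 69.0 CPM in juvenile, 87.7, 86.4, 84.3 and 89.2 CPM in adult, 175 and 162 CPM in *c-Myc*, and 168 and 163 CPM in *c-Myc* + *R172H* libraries. The induced groups overlapped with each other and with no control. The log2 fold change against juvenile was 1.23 both for *c-Myc* (SE 0.09, adjusted p = 2.2e-07, edgeR) and for *c-Myc* + *R172H* (SE 0.09, adjusted p = 1.6e-07), which is 2.34-fold, and both calls held in every alternative run. R172H added to *c-Myc* moved *Cdk4* by 0.0012 on the log2 scale (95% interval from -0.22 to 0.22). The ages did not overlap, but the difference was not called (-0.30, SE 0.11, unadjusted p = 0.012, adjusted p = 0.113). It was called with all 12 libraries in the fit and with library totals (adjusted p = 0.046 and 0.0307). Exons of *Tspan31* on the opposite strand cover 19.7% of the exon bases of *Cdk4*.

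The promoter of *Cdk4* is shown because it was the one among the promoters searched with more than 1 copy of the c-Myc target letters. Promoters of 8 of the 10 genes (all but *Ccnd1* and *Ccnd2*), 11 in all, were in a RefSeq table of GRCm38.p6 that gives 250 bases before and 50 after each start, and they were searched for CACGTG, which reads the same on both strands, and for the E2F motif letters TTTCGCGC and TTTGGCGC on both strands. *Cdk4* held 4 copies of CACGTG. At least 1 copy stood in 7.15% of the 32851 promoters of the table, and at least 4 in 8 promoters (0.0244%). *Cdk6* held 1 copy, and the second promoter of *Cdkn2c* held 1 after its start. The E2F letters were in none of the 11, and in 0.813% of all promoters. The 250 bases before each start are written 5′ to 3′ on the plus strand, with CACGTG in capitals, for *Cdk4* at chr10:127063285-127063534 and for *Cdk6* at chr5:3343643-3343892.
Cdk4: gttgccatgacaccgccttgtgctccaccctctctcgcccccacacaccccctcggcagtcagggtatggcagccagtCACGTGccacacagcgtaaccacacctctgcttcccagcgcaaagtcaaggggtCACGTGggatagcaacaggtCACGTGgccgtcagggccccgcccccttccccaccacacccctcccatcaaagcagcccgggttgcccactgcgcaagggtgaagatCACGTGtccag
Cdk6: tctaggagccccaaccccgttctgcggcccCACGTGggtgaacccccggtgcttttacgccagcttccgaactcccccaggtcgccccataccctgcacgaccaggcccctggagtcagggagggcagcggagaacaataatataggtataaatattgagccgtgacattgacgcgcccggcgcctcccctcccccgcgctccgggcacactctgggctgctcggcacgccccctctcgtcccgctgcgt
In *Cdk4* the copy nearest to the start begins 11 bases before it, and the copy in *Cdk6* begins 220 bases before its start. The matches are descriptions of letters. No binding was measured here.

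*Cdk6* (ENSMUSG00000040274, chromosome 5 from 3341485 to 3531008) behaved unlike its partner. Adult libraries had 131, 35.8, 52.0 and 75.0 CPM and juvenile libraries 38.8, 35.0, 25.9 and 17.8 CPM, so the ages overlapped at 1 library each and replicate 1 stood far above the other adult libraries. The log2 fold change with age was -1.33 (SE 0.45, unadjusted p = 0.0204, adjusted p = 0.155, edgeR). It was -0.89 without adult replicate 1, where the chondrocyte markers were highest, and -1.55 without adult replicate 2, where it was called (adjusted p = 0.0478). The *c-Myc* libraries had 44.0 and 46.9 CPM, above every juvenile library and within the adult range, with a log2 fold change of 0.60 against juvenile (SE 0.24, adjusted p = 0.051). That value lay at the threshold: 6 of 10 alternatives called it, with log2 fold changes from 0.27 to 1.40 over the 10, the highest with library totals, and adjusted p from 0.000133 to 0.298. It was also called in the fits without juvenile replicate 1 or without either *c-Myc* + *R172H* library (adjusted p = 0.0185, 0.0499 and 0.0499). The *c-Myc* + *R172H* libraries had 43.8 and 33.5 CPM and overlapped the juvenile ones (0.39, adjusted p = 0.181).

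Per kilobase, *Cdk4* was the dominant kinase in every library. It made up 91.3 ± 2.39% (SD, n = 4) of the sum of both in juvenile, 84.1 ± 7.31% (n = 4) in adult, 94.1 ± 0.560% (n = 2) in *c-Myc* and 94.9 ± 0.806% (n = 2) in *c-Myc* + *R172H* libraries. The lowest share was 74.2%, in adult replicate 1.

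**Figure D4:**
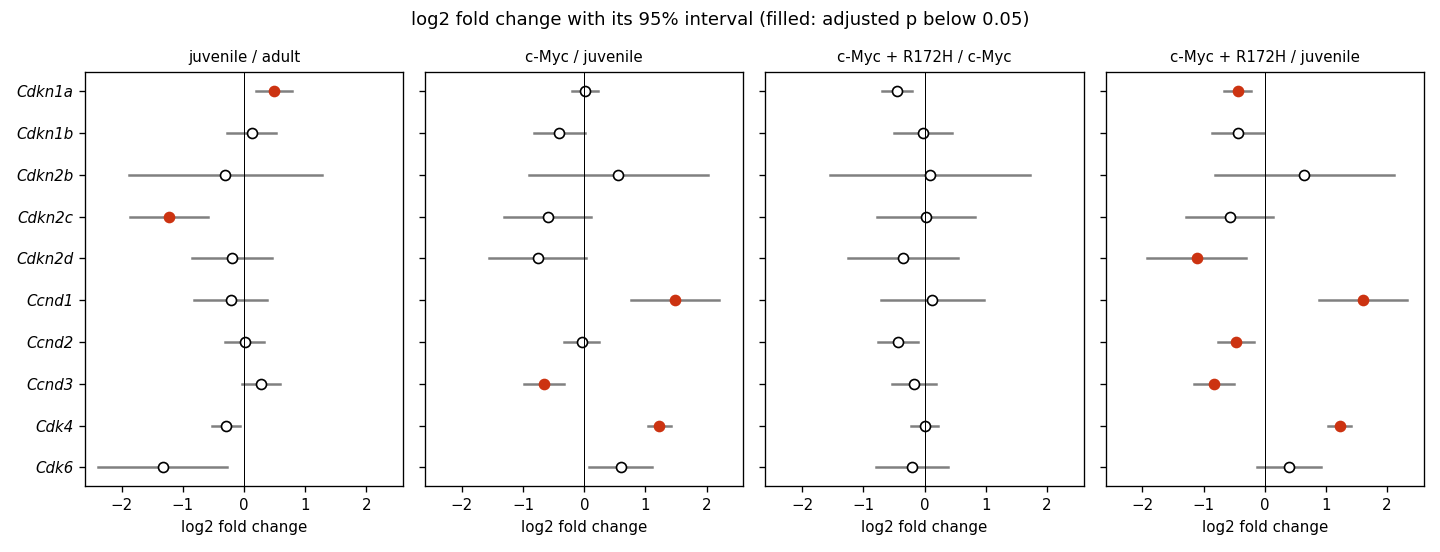
log2 fold change (point) and its 95% interval (line) of the 10 genes in 4 comparisons, with filled points where the adjusted p was below 0.05 in edgeR. *Cdk4* and *Ccnd1* lie to the right in both comparisons with juvenile cells, at 1.23 to 1.61, and no point is filled for R172H added to *c-Myc*.

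Promoting and inhibiting members can be set against each other within a library as well. The summed D cyclins per kb were 0.487 ± 0.113 (SD, n = 4) of the summed 5 inhibitors in juvenile, 0.599 ± 0.0552 (n = 4) in adult, 0.768 ± 0.0218 (n = 2) in *c-Myc* and 0.970 ± 0.0354 (n = 2) in *c-Myc* + *R172H* libraries. *Cdk4* per *Cdkn1a* was 0.413 ± 0.0609 in juvenile, 0.724 ± 0.142 in adult, 0.950 ± 0.0740 in *c-Myc* and 1.30 ± 0.0620 in *c-Myc* + *R172H* libraries, and no 2 of these 4 groups overlapped. *Ccnd1* per *Cdkn1a* was 0.113 to 0.344 in juvenile, 0.248 to 0.488 in adult, 0.529 and 0.576 in *c-Myc*, and 0.864 and 0.790 in *c-Myc* + *R172H* libraries. Juvenile cells thus held the most *Cdkn1a* message for each *Cdk4* message and *c-Myc* + *R172H* cells the least. *Cdkn1a* supplied 61.3% to 73.0% of the signal of these 5 inhibitors per kb in adult libraries and 78.9% to 85.2% in the other 3 groups. A further inhibitor, *Cdkn1c*, is not in these sums. It stood at 13.6 to 42.8 CPM per kb in juvenile, 33.8 to 107 in adult and 2.82 to 3.10 in induced libraries. *Cdkn1a* stood at 30.6 to 48.0 CPM per kb in adult libraries. The summed ratio and the *Cdkn1a* share therefore describe these 5 inhibitors alone, also in their order by age.

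For several of these genes the direction depended on how the libraries were scaled. When library totals replaced the TMM factors, the median log2 fold change of all genes against juvenile moved from 0.04 to 0.87 for *c-Myc* and from 0.08 to 1.12 for *c-Myc* + *R172H*, and the share of higher genes among those called went from 53.2% to 85.9% and from 53.6% to 86.8%. On that scale *Ccnd3* was at 0.18 and 0.23, and *Cdkn1a* at 0.85 and 0.61, all above 0. These values of *Cdkn1a* were called (adjusted p = 5.4e-05 and 0.00066, edgeR) and those of *Ccnd3* were not (0.303 and 0.184). Relative to the median of all genes on that scale, *Ccnd3* was still at -0.69 and -0.89, *Cdkn1a* at -0.02 and -0.50, and *Cdk4* at 1.19 and 1.15. The falls of *Ccnd3*, *Ccnd2*, *Cdkn1a* and *Cdkn2d* are therefore falls relative to most other genes, and the rises of *Ccnd1* and *Cdk4* hold on both scales.

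**Figure D5:**
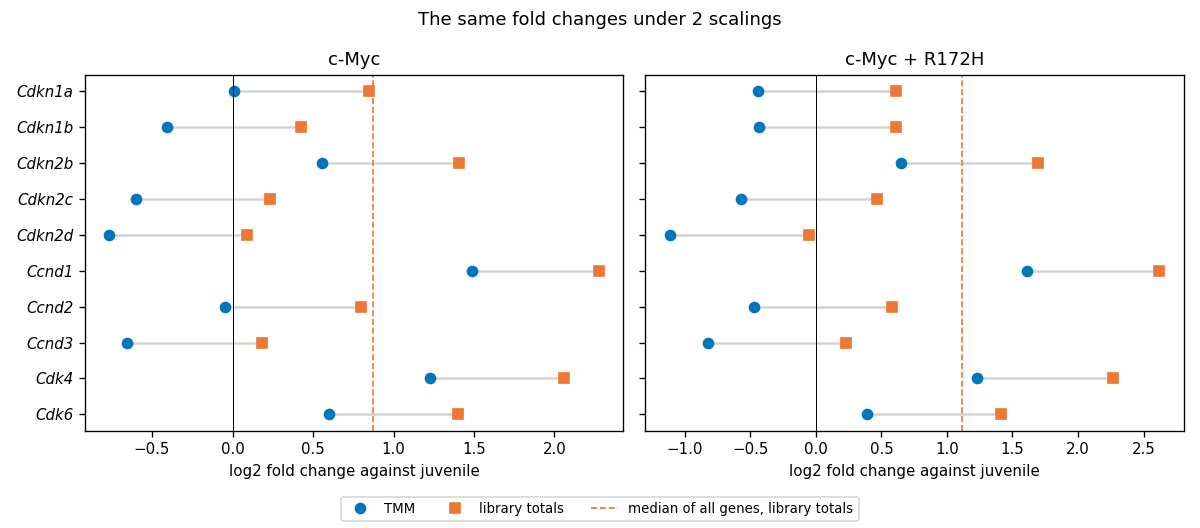
log2 fold change against juvenile of the 10 genes with TMM factors (circles) and with library totals (squares), and the median of all genes with library totals (dashed, 0.87 left and 1.12 right). *Ccnd1* and *Cdk4* are above 0 on both scales, while *Ccnd3* goes from -0.66 to 0.18 with *c-Myc* and from -0.83 to 0.23 with *c-Myc* + *R172H*.

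The genes that act next to these 10 were followed as a list of 20: cyclins E and A, *Cdk2*, the retinoblastoma family, E2F factors, the CDK-activating kinase and the inhibitors *Cdkn1c* and *Cdkn2a*. With age none of the 20 was called (5.12% over all genes) and the median log2 fold change was 0.07. With *c-Myc* 13 rose and 1 fell (median 0.96, against 0.04 for all genes, of which 53.4% were called), and with *c-Myc* + *R172H* 14 rose and 1 fell (median 1.09, against 0.08 for all genes, of which 56.7% were called). The largest rises with *c-Myc* were those of *Ccne1* (3.25) and *Ccna2* (3.23), the cyclins that drive CDK2, and of *E2f2* (2.86), an E2F factor held by the retinoblastoma protein. The gene that fell was *Cdkn1c*, which encodes p57, the remaining CIP/KIP inhibitor. It was at 27.7 to 87.2 CPM in juvenile, 68.9 to 218 CPM in adult, 6.07 and 6.23 CPM in *c-Myc*, and 6.31 and 5.75 CPM in *c-Myc* + *R172H* libraries. Its log2 fold change was -3.31 in both comparisons with juvenile (SE 0.39 in each, adjusted p = 2.1e-05 and 1.8e-05, edgeR). *Cdkn1c* was highest in adult replicate 1, where the chondrocyte markers were highest, and their part in its level was not tested.

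*Cdkn2a*, next to *Cdkn2b* on the chromosome, rose most among the 20 genes of this list in *c-Myc* + *R172H* cells. It had 3.47, 0.309, 1.81 and 0 CPM in juvenile, 7.99 and 5.27 CPM in *c-Myc*, and 19.4 and 17.5 CPM in *c-Myc* + *R172H* libraries, so the 3 groups did not overlap. The log2 fold change against juvenile was 3.66 (SE 0.66, adjusted p = 0.000515, edgeR) for *c-Myc* + *R172H* and 2.16 (SE 0.68, adjusted p = 0.0185) for *c-Myc*. The direct difference between the induced groups was 1.50 (SE 0.70, adjusted p = 1.0). One gene count covers both products of this locus, p16 and p19Arf, and cannot tell them apart. The study's own read tracks show *Arf* raised with *c-Myc* and more so with p53 inactivated, and no detectable *p16*. *Cdkn2b*, on the same locus, stayed at 1.53 to 2.46 CPM in these 4 induced libraries.

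S phase and proliferation genes moved with *c-Myc*. Of 20 such genes all 20 rose in each comparison with juvenile cells (median log2 fold change 2.74 and 2.82, with 53.4% and 56.7% of all genes called), led in the first by *Cdc6* (3.64), *Ccnb1* (3.40) and *Mcm5* (3.39). With R172H added to *c-Myc* none was called, where 0.469% of all genes were, and the median was 0.06. With age none of the 19 tested was called, where 5.12% of all genes were, and the median was -0.24. Of 15 genes that turn over the inhibitors and D cyclins, 6 rose and 1 fell with *c-Myc*, and 7 rose and 1 fell with *c-Myc* + *R172H*. These counts are below the 53.4% and 56.7% of all genes called. *Dtl*, the substrate receptor that directs p21 to degradation in S phase, rose by 3.10 and 3.24, and *Cks1b*, the cofactor of SKP2 in the degradation of p27, by 2.39 and 2.51. *Ubac1*, a subunit of the ligase that degrades p27 in G1, rose by 1.42 and 1.39. *Fbxo4*, an F-box protein described for cyclin D1, fell by 1.48 and 1.52 on the log2 scale. The calls of *Fbxo4* were lost without *c-Myc* replicate 2 and without *c-Myc* + *R172H* replicate 2 (adjusted p = 0.0739 and 0.0526), and with library totals.

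The list of 23 other p53 targets was read beside *Cdkn1a*. Against juvenile cells 13 rose and 3 fell with *c-Myc* (median 0.98, with 53.4% of all genes called), while *Cdkn1a* stood at 0.01. *Eda2r* (3.51), *Tnfrsf10b* (1.71), both of the TNF receptor family, and *Bax* (1.71), which permeabilizes mitochondria, rose most, and *Pmaip1* (-1.68), *Btg2* (-1.43) and *Ak1* (-0.69) fell. With *c-Myc* + *R172H* again 13 rose and 3 fell (median 0.73, with 56.7% of all genes called), led by *Eda2r* (3.31), *Tnfrsf10b* (1.68) and *Sesn1* (1.60), with *Pmaip1* at -2.50, *Btg2* at -1.62 and *Ak1* at -1.13. With library totals *Ak1* lost both calls, at 0.15 with *c-Myc* and -0.080 with *c-Myc* + *R172H* (adjusted p = 0.374 and 0.629). In the direct comparison of the induced groups none of the 23 was called, where 0.469% of all genes were. Of the 23, 19 lay below 0 and 4 above, and the median was -0.19 against -0.0028 for all genes. With age (5.12% of all genes called) 2 of the 21 tested were higher in juvenile cells, *Pmaip1* (1.81) and *Plk2* (1.15), and 1 was lower, *Tnfrsf10b* (-1.97). *Plk2* was called in all alternatives and without each library in turn, and the other two calls lay near the threshold. *Pmaip1* was lost with library totals (1.52, adjusted p = 0.0599) and without juvenile replicate 1, 2 or 4 or adult replicate 1 (adjusted p from 0.0559 to 0.0681), and *Tnfrsf10b* was lost with age without adult replicate 3 or 4 (0.0526 and 0.0626), with *c-Myc* without *c-Myc* replicate 1 (0.0515), and with *c-Myc* + *R172H* without its replicate 2 (0.0566).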

How the data were processed

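The authors trimmed reads with cutadapt 4.6, mapped them to mm10 with STAR 2.7.11a and assigned unique reads to genes with HTSeq-count 2.0.5. The deposited values are raw counts of 32288 entries in 12 libraries. The strand setting of the counting is not given in the sources used here. The libraries were directional and carried no molecular identifiers, so limits of depth cover counting error only.

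Tests used edgeR 4.0.16 in R 4.3.3: default expression filter, TMM, and a robust quasi-likelihood F test, whose p was adjusted over all genes tested (Benjamini-Hochberg), with calls below 0.05. Age was fitted on the control libraries alone. The other comparisons came from 1 fit without adult libraries and so share their controls. The SE is the log2 fold change divided by the root of F, and intervals are 95%. CPM used TMM-scaled library sizes over all 12 libraries, and CPM per kb divides by merged exon length (GENCODE M21, GRCm38). In these libraries 3 counts equal 0.137 to 0.417 CPM. Replicates differed by more than sampling noise in each group (chi-square 5.45 to 136 per degree of freedom). Adult libraries carry other numbers in their library names than in their titles, and titles were used. The procedure was tested on simulated data.

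All 10 genes are named in each comparison. From each list (G1 to S partners, turnover, p53 targets, S phase) a comparison names at most 3 rises and 3 falls, taken by size from called genes with separate groups and a mean of 10 or more counts. *Cdkn2a* in the *c-Myc* and the direct comparison was named after its values were seen. The 10 genes and the lists were chosen with earlier results of these data known. Alternatives tried were scaling by RLE, by upper quartiles or by library totals, a table without *Col1a1*, *Col1a2* and *Gm26917*, no filter, a filter of 10 counts in each library, all 12 libraries or only the compared groups in the fit, DESeq2 1.42.0, a replicate block, and each library left out. Protein sequences were not used here.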

Additional observations from a re-analysis of the deposited data

How the results depend on the processing

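Of 703 results for the 10 genes under alternatives, 616 kept their direction and their side of the threshold. The cause of the changes was not tested, except that left-out libraries and the fits of 2 groups hold fewer samples. Genes called with age numbered 977 without a filter, 1094 with all 12 libraries and 940 with DESeq2, and 284 to 885 with a library left out, against 581. Genes called for R172H added to *c-Myc* numbered 12 with library totals, 222 without a filter, 22 with all 12 libraries, 629 on the 2 groups alone, 208 with DESeq2 and 8 to 87 with a library left out, against 59. Of the 10 genes, 0 to 2 were called with age when a library was left out, beside the 284 to 885 of all genes. With library totals 5 of the 10 were called with *c-Myc* and 7 with *c-Myc* + *R172H*, where 7918 and 8837 of all 12588 genes were called. For R172H added to *c-Myc*, 2 were called on the 2 groups alone (*Cdkn1a* and *Ccnd2*), 1 with DESeq2 (*Cdkn1a*) and 0 with a library left out. Same-numbered libraries of the control groups deviated from their group means with correlations of -0.052 to 0.037, and those of the induced groups with 0.14. With only 2 libraries in each induced group, both pairs give this same value by construction. The numbers were not taken as pairs. The replicate block called 1 of the 10 genes with age (*Cdkn2c* at -1.18, adjusted p = 0.0603, edgeR, was lost) and 434 of all 11345 genes there. For R172H added to *c-Myc* it called 2 (*Cdkn1a* and *Ccnd2*) and 326 of all 12588 genes. It gave *Ccnd2* 0.075 and *Cdk6* 0.27 with *c-Myc*.

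With library totals, log2 fold changes turned with age for *Cdkn1b* (-0.12) and *Ccnd2* (-0.23), with *c-Myc* for *Cdkn1b* (0.43), *Cdkn2c* (0.23), *Cdkn2d* (0.090), *Ccnd2* (0.80), *Ccnd3* (0.18) and *Ak1* (0.15), for R172H added to *c-Myc* for *Cdkn1b* (0.19), *Ccnd3* (0.047) and *Cdk6* (0.011), and with *c-Myc* + *R172H* for *Cdkn1a* (0.61), *Cdkn1b* (0.61), *Cdkn2c* (0.47), *Ccnd2* (0.58) and *Ccnd3* (0.23). Values near 0 also changed sign. *Cdkn1a* with *c-Myc* was -0.00070 with RLE, -0.065 with upper-quartile factors and -0.0061 on the 2 groups alone. *Ccnd2* was -0.0064 with age under the filter of 10 counts and 0.011 with *c-Myc* without a filter. *Cdk4* for R172H added to *c-Myc* was -0.022 with RLE, -0.028 with all 12 libraries and -0.022 with DESeq2. With a library left out, values with age ran from -0.013 to 0.25 for *Cdkn1b* and from -0.12 to 0.092 for *Ccnd2*, with *c-Myc* from -0.055 to 0.048 for *Cdkn1a* and from -0.12 to 0.074 for *Ccnd2*, and for R172H added to *c-Myc* from -0.15 to 0.045 for *Cdkn1b*, from -0.23 to 0.45 for *Cdkn2b*, from -0.19 to 0.17 for *Cdkn2c* and from -0.080 to 0.030 for *Cdk4*.

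Without division by length, *Ccnd1* made up 19.9% of the D cyclin counts in juvenile, 23.6% in adult, 44.0% in *c-Myc* and 52.9% in *c-Myc* + *R172H* libraries, *Ccnd2* 62.4%, 62.0%, 47.4% and 38.6%, and *Ccnd3* 14.4% in adult, 8.59% in *c-Myc* and 8.43% in *c-Myc* + *R172H* libraries, so on this scale *Ccnd2* and not *Ccnd1* led in the *c-Myc* mean. DESeq2 did not call *Cdc6* (adjusted p = 0.0835 with *c-Myc* and 0.0803 with *c-Myc* + *R172H*).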
